A study of Populus davidiana with 6 samples.

Results

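Strandless assembled loci are stretches of the poplar genome that are known from assembled RNA reads alone and to which no strand is assigned. A locus was kept if every transcript listed for it was marked as assembled with a dot for the strand, and if it spanned at least 200 bp. Of 40537 gene identifiers, 1307 had no strand, and 616 of these reached 200 bp. The account covers the 485 loci that were above 0 FPKM (fragments per kilobase, relative to library size) in at least 3 of 6 libraries. Of the other 131 loci, 75 were listed at 0 in every library, 22 were above 0 in 1 library and 34 in 2 libraries.

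The libraries were made from leaves of Populus davidiana, an Asian aspen, cultivar Odae19, which the labels call drought tolerant. All plants were seedlings about 6 weeks old and propagated in vitro on a medium with sucrose and the auxin naphthalene acetic acid. There were 3 control libraries and 3 libraries from plants that were uprooted, rinsed and kept in the open for about 10 min, called air-dried here. The labels do not say whether the controls were also uprooted and rinsed, so the effects of drying cannot be told apart from those of removal and rinsing. Values of a group are given in the order of its libraries 1, 2 and 3. Nothing says that the replicates were separate plants, so p-values measure the spread between these libraries, which may be technical. The leaf label could not be checked against marker genes, because the files give 0 gene names.

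As background, a library kit that does not mark the strand leaves the splice sites as the main clue to the strand of a transcript. Assembled transcripts without introns therefore often carry no strand. In plants such transcripts are a known mix that includes unspliced noncoding RNAs, pieces of untranslated regions and of introns, transcribed transposable elements and pieces of unannotated genes. Nothing in the files assigns any of the 485 loci to one of these kinds, and their sequences are not shown because no genome was used here.

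The label fitted the table. All 1307 strandless identifiers held 1 transcript each, whose span is its length where it has no intron. All but 1 carry an assembler's identifier, and the exception is a locus on chromosome 9 (2662727 to 2663560) that carries an annotated gene's identifier. The 485 loci spanned 200 to 2267 bp with a median of 368 bp. There were 167 loci under 300 bp and 22 of at least 1000 bp. Near the limit, the shortest loci kept spanned 200 bp (chromosome 5, 1376446 to 1376645) and 201 bp (chromosome 7, 507937 to 508137), with 7.40 to 42.7 FPKM and 3.20 to 45.3 FPKM over the 6 libraries. Just outside it, loci of 199 bp and 198 bp had 10.1 to 130.1 FPKM and 0 to 23.8 FPKM.

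The 6 libraries did not weigh short loci alike. At a strandless locus, low FPKM values were whole multiples of 1 step, the worth of 1 fragment at that span. All values worth 1 to 6 fragments (204 to 237 per library) came out within 0.1 of a whole number, and so did all those from 7 to 20 fragments (154 to 187 per library). The steps gave a depth of 14.8, 15.1 and 15.8 for controls 1, 2 and 3 and of 14.4, 14.1 and 16.5 for air-dried 1, 2 and 3, in units of 1000000 fragments. From 350 bp upwards, the steps in each library were those of a length shortened by a fixed number of bases. That number was 255, 258 and 200 bp in controls 1, 2 and 3 and 256, 196 and 207 bp in air-dried 1, 2 and 3. Controls 1 and 2 and air-dried 1 thus stood apart from control 3 and air-dried 2 and 3, a division that crosses the labelled groups.

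**Figure D1:**
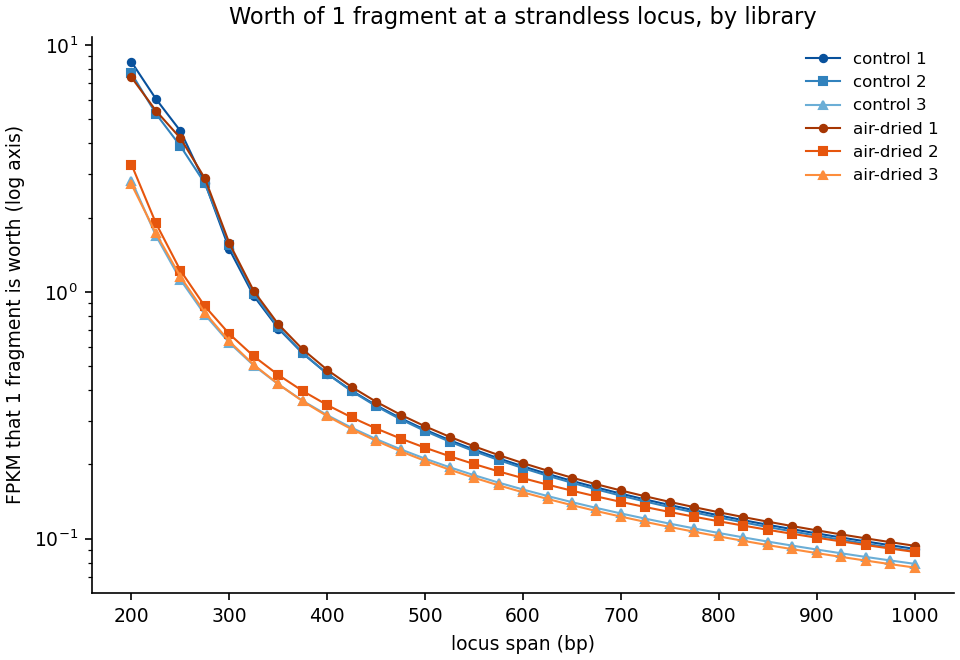
FPKM that 1 fragment is worth (log axis) against the span of a strandless locus in bp, 1 line per library. Controls 1 and 2 and air-dried 1 run together above the other 3 libraries, and the gap narrows from 250 bp to 1000 bp.

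At 250 bp, 1 fragment was worth 4.49, 3.90 and 1.12 FPKM in controls 1, 2 and 3. In air-dried 1, 2 and 3 it was worth 4.20, 1.22 and 1.15 FPKM. At 1000 bp the same 6 values lay between 0.0764 and 0.0936 FPKM. A locus of 250 bp with the same number of fragments would therefore be listed several times higher in controls 1 and 2 and air-dried 1 than in the rest.

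The deposited levels of the loci followed this division. The summed FPKM of the 616 loci was 0.732%, 0.737% and 0.347% of the FPKM of all genes spanning at least 200 bp in controls 1, 2 and 3. It was 0.736%, 0.323% and 0.343% in air-dried 1, 2 and 3. The groups overlapped, and their difference did not pass (0.605 ± 0.224% in controls, 0.467 ± 0.233% air-dried, SD, n = 3, 2-sided exact permutation p = 0.3). With 3 libraries against 3 the smallest such p is 0.1. Counted as fragments, the loci held nearly the same part of every library, with 488, 484 and 488 fragments per 1000000 fragments in the controls and 477, 477 and 510 after air-drying (exact permutation test, 2-sided p = 1).

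Among loci above 0 in all 6 libraries, the median log2 deviation from the locus mean was largest in the short ones. For the 58 loci of 250 to 299 bp it was 0.88, 0.95 and −0.80 in controls 1, 2 and 3 and 0.88, −1.11 and −0.66 in air-dried 1, 2 and 3. For the 20 loci of 1000 bp or more the deviations lay between −0.17 and 0.21. When the fragments per kilobase of span and library size were used in place of FPKM, the 250 to 299 bp loci deviated by −0.22 to 0.14. Fragment counts were not corrected for the fragments' own length, which short loci cannot hold in full.

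**Figure D2:**
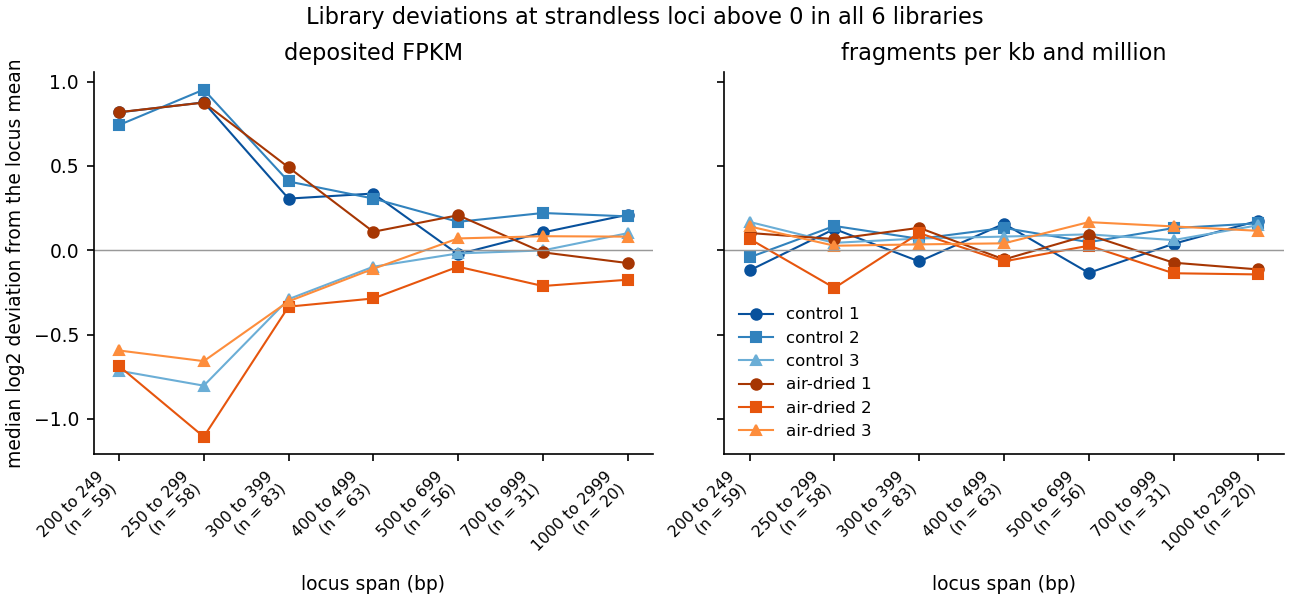
Median log2 deviation of each library from the locus mean, by span of the locus in bp (n loci above 0 in all 6 libraries below each class), for deposited FPKM on the left and for fragments per kilobase of span, scaled to library size, on the right. On the left the libraries split by up to 0.95 above and 1.11 below 0 under 300 bp, and on the right they stay between −0.22 and 0.17.

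Most of the loci were weakly covered. The median was 43 fragments per locus summed over the 6 libraries. There were 57 loci with fewer than 10 fragments in all and 101 with at least 100, and the lowest had 3. The 10 loci with the most fragments held 30.0% of the 44116 fragments. The mean over 6 libraries had a median of 3.87 FPKM, with 75 loci under 1 FPKM and 129 at 10 FPKM or more, of which 98 were under 300 bp. Across loci, span and mean FPKM had a Spearman correlation of −0.62, whereas span and fragments per kilobase had −0.11 (485 loci, which share libraries and the length step).

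None of the 5 loci with the highest mean FPKM was among the 5 with the most fragments. They were still well covered, with 145 to 730 fragments each against the median of 43. The locus with the highest mean FPKM was one of 207 bp on chromosome 14 (3015112 to 3015318). The controls gave 492, 534 and 65.3 FPKM there, and the air-dried libraries 269, 72.5 and 59.6 FPKM, from 64, 78, 27, 40, 26 and 25 fragments. The groups overlapped in FPKM, and the locus did not pass the test (log2 fold change −1.29, SE 0.97, limma adjusted p = 0.606). The next was a locus of 270 bp on chromosome 2 (3714379 to 3714648), with 367, 281 and 52.3 FPKM in the controls and 272, 52.9 and 84.1 FPKM after air-drying. Its fragments numbered 117, 93 and 61 against 85, 57 and 96, again with overlapping groups. The remaining places among the 5 highest means went to the locus on chromosome 1 described below as the largest change, to one of 312 bp on chromosome 9 (11906038 to 11906349) and to one of 211 bp on scaffold 124 (18377 to 18587). The chromosome 9 locus, 136 bp from the nearest gene, had 105, 100 and 79 fragments against 218, 88 and 140, and the scaffold locus 23, 30 and 32 against 22, 23 and 15. Neither passed the test (limma adjusted p = 0.910 and 0.506).

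By fragments the leading locus was the longest one, 2267 bp on chromosome 10 (15366772 to 15369038). With 5134 fragments in all, it stood at 29.7, 28.4 and 26.9 FPKM in control leaves and at 27.7, 25.7 and 28.3 FPKM in air-dried leaves. It alone held 11.6% of the fragments of the 485 loci. It was also the steadiest locus among the 277 with at least 1 FPKM in every library, with a coefficient of variation of 4.95%. The nearest gene with a strand lay 8111 bp away. The second steadiest was a locus of 922 bp on chromosome 13 (12998395 to 12999316), 85 bp upstream of a gene, at 16.0, 14.6 and 14.2 FPKM in the controls and 14.0, 13.8 and 13.0 FPKM in the air-dried leaves. Its groups did not overlap in FPKM, but the difference did not pass (log2 fold change −0.12, SE 0.076, limma adjusted p = 0.510).

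The next 3 steadiest loci had coefficients of variation of 10.6% to 13.6%. One of 472 bp on scaffold 357 (8555 to 9026) stood at 2.50 to 3.43 FPKM from 66 fragments. One of 431 bp on chromosome 8 (15860414 to 15860844) stood at 10.7 to 15.7 FPKM and one of 355 bp there (9809960 to 9810314) at 16.5 to 22.5 FPKM, from 260 and 220 fragments. The locus of 431 bp overlapped between the groups in FPKM but not in fragments per kilobase, scaled to library size. These were 6.13, 6.13 and 5.73 in the controls and 6.14, 7.59 and 8.16 after air-drying. In FPKM it was not called (limma adjusted p = 0.744). These 5 steady loci lay outside genes, between 85 and 8111 bp from the nearest one.

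Ranked by fragments, a choice made after the values were seen, the second locus spanned 1412 bp on chromosome 12 (2531577 to 2532988). It held 2188 fragments and lay inside an assembled locus with a strand. It had 22.7, 22.0 and 25.2 FPKM in control leaves, as against 12.0, 18.9 and 20.6 FPKM in air-dried leaves. The groups did not overlap, yet the difference did not pass (log2 fold change −0.45, SE 0.20, limma adjusted p = 0.344). The third, of 836 bp on chromosome 6 (7370528 to 7371363), had 1009 fragments and 14.4 to 24.5 FPKM, and the fifth, of 354 bp on the same chromosome (24455955 to 24456308), had 852 fragments and 65.5 to 101.6 FPKM. Both had overlapping groups. None of the 5 loci with the most fragments was among the called ones.

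The other long loci were faint. One of 1665 bp on chromosome 2 (22205050 to 22206714) was seen as 1 fragment in each of control 1, air-dried 1 and air-dried 2. One of 1644 bp on chromosome 8 (7963005 to 7964648) had 10, 14 and 15 control fragments and 3, 5 and 9 after air-drying. In FPKM it measured 0.488, 0.666 and 0.656 against 0.150, 0.245 and 0.378, so its groups did not overlap, but it stayed under the level required for the test.

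Loci close to a gene lay mostly on its upstream side. Genes with a strand include here the 851 assembled loci with a strand, which hold no annotated transcript. Of the 485 loci, 97 lay wholly inside the span of a gene with a strand, 363 lay outside all such genes, and 25 were on sequences that carry none. No locus overlapped a gene in part, and whether the 97 lie in introns is not known, because the files give no exons. Of the 159 loci within 1000 bp of the nearest gene, 133 lay upstream of it and 26 downstream. Within 500 bp the counts were 105 and 18. Beyond 1000 bp they were 124 upstream and 80 downstream.

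Among the 689 assembled loci with a strand that met the same limits of span and detection, 57.9% were inside or overlapping another gene. Those within 1000 bp outside a gene were 80 upstream and 87 downstream. The 293 strandless loci under 200 bp that were above 0 in at least 3 libraries had 121 upstream and 21 downstream within 1000 bp. These are counts of places, with no test of the difference between the kinds of loci.

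**Figure D3:**
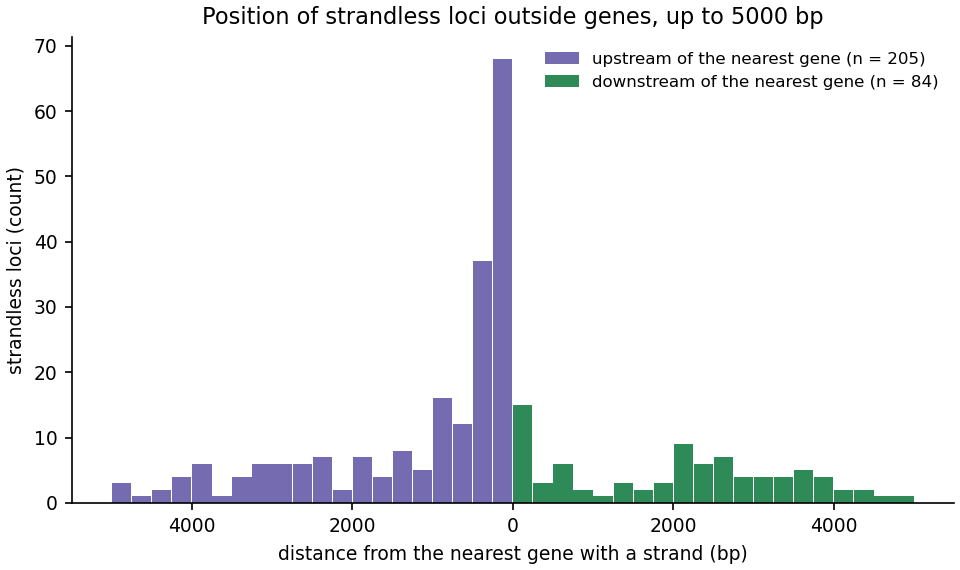
Number of strandless loci (count) by distance in bp from the nearest gene with a strand, in steps of 250 bp up to 5000 bp, upstream to the left and downstream to the right. The first 250 bp hold 68 loci upstream and 15 downstream.

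The loci inside genes had the highest median coverage, with no test of the difference. It was 54 fragments over the 6 libraries for the 97 loci inside genes. It was 39 for the 133 within 1000 bp upstream, 43 for the 26 within 1000 bp downstream and 40 for the 204 farther away. Median spans in these classes lay between 353 and 375 bp. All 19 chromosomes held such loci, 419 in all, and the other 66 were on 57 unplaced scaffolds. Relative to annotated genes, they ranged from 7.15 per 1000 genes on chromosome 5 to 15.5 on chromosome 14. There were 46 pairs of neighbouring loci at most 2000 bp apart, which were counted as separate loci.

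Whether a locus changed after air-drying was tested with limma on log2(FPKM + 1), fitted over the 22559 genes that reached 1 FPKM in 3 or more libraries. Of the 485 loci, 407 passed this filter and 78 did not. The filter favours short loci, because 1 fragment at 200 bp was worth 2.73 to 8.54 FPKM. All 84 loci of 200 to 249 bp passed it, against 10 of the 22 of at least 1000 bp, so the tested loci were not chosen by coverage. Among the 407 tested loci, 8 were higher and 5 lower in the air-dried leaves at a Benjamini-Hochberg adjusted p under 0.05. That is 1.97% and 1.23% of the tested loci, against 3.61% and 0.696% of all tested genes, 4.3% in either direction. All 13, called on the same values, had separate groups both in FPKM and in fragments per kilobase, which is no further support. Of these, 2 higher and 2 lower loci were under 1 FPKM in each library of the lower group, so that they passed the filter through the higher group alone: XLOC_036318, XLOC_008645, XLOC_007035 and the locus of 330 bp on chromosome 1. The median log2 fold change was −0.20 over the 407 loci and 0.0037 over all tested genes. Leaving out 1 library moved the 13 calls to between 4, without air-dried 3, and 19, without control 3. A fit without control 1 gave 6 and one without control 2 gave 8. Over all genes the share called was 2.11% without air-dried 3, 3.07% without control 3, 2.56% without control 1 and 2.38% without control 2.

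**Figure D4:**
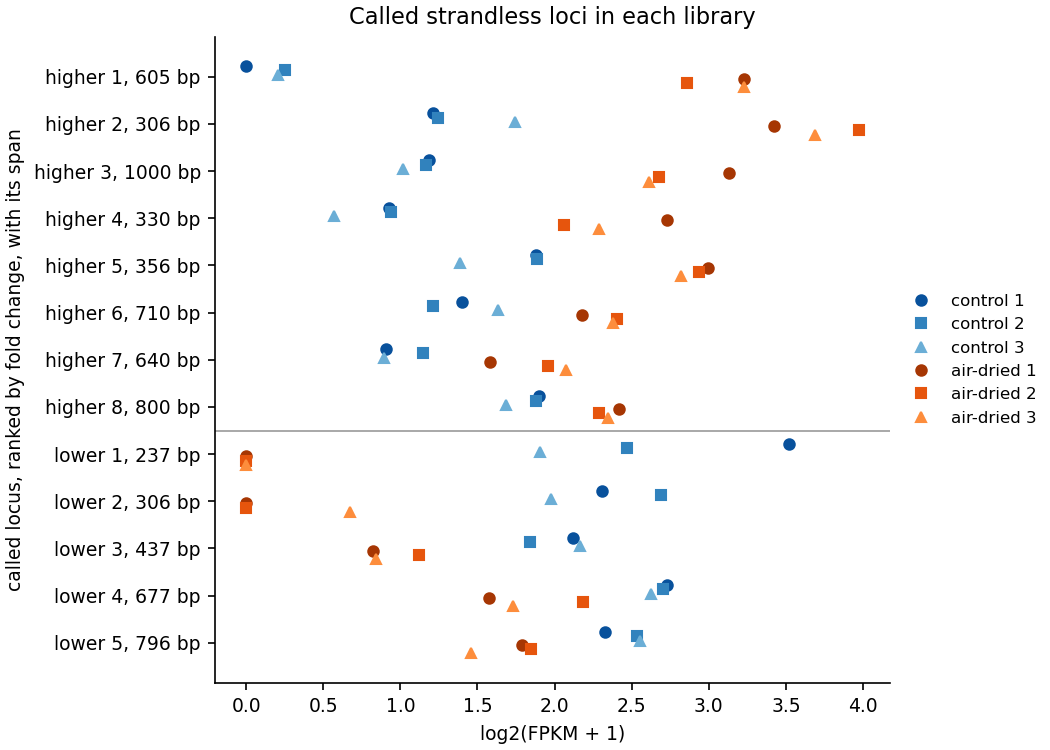
log2(FPKM + 1) of the 13 called loci in each library, ranked by fold change within direction and labelled by span in bp. The 3 air-dried libraries lie above the 3 controls in the upper 8 loci and below them in the lower 5.

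The largest rise among the called loci was that of XLOC_036318, a locus of 605 bp on chromosome 8 (9284125 to 9284729). Control leaves had 0, 0.190 and 0.156 FPKM, and air-dried leaves 8.38, 6.25 and 8.36 FPKM. In fragments this was 0, 1 and 1 against 42, 36 and 55. The air-dried libraries were thus alike and far above the controls (log2 fold change 2.95, SE 0.14, limma adjusted p = 0.00022). The locus passed the filter for the test through the air-dried libraries alone. The nearest gene with a strand lay 3514 bp away and did not pass the test (log2 fold change −0.25, limma adjusted p = 0.457).

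The second was XLOC_017562, of 306 bp on chromosome 17 (1600392 to 1600697), inside the span of an annotated gene. Its level was 1.32, 1.36 and 2.35 FPKM without and 9.71, 14.7 and 11.9 FPKM with air-drying, from 1, 1 and 4 against 7, 23 and 20 fragments. The groups did not overlap (log2 fold change 2.30, SE 0.20, limma adjusted p = 0.00245). The gene around it had a log2 fold change of 0.0067 (limma adjusted p = 0.991). As fragments per kilobase, a scale of smaller values to which 1 was likewise added, the locus missed the threshold (limma adjusted p = 0.0638).

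A locus of 1000 bp on chromosome 11 (5961034 to 5962033) rests on more fragments, 14, 14 and 13 against 83, 61 and 67. Its levels were 1.27, 1.24 and 1.03 FPKM in control and 7.77, 5.39 and 5.11 FPKM in air-dried leaves, with no overlap (log2 fold change 1.68, SE 0.16, limma adjusted p = 0.00314). It lies inside an annotated gene that was itself called higher (log2 fold change 1.30, limma adjusted p = 0.0367). The TruSeq RNA kit named in the labels is known as one that does not mark the strand, and the files give no strand for the locus, so which reads belong to the locus and which to the gene was not tested.

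The next rises by size lay just upstream of genes. A locus of 330 bp on chromosome 1 (10537292 to 10537621), 165 bp upstream of an annotated gene, rose from 0.898, 0.915 and 0.484 FPKM to 5.63, 3.17 and 3.89 FPKM. Each control holds 1 fragment there, and the air-dried libraries hold 6, 6 and 8 (log2 fold change 1.55, SE 0.21, limma adjusted p = 0.0121). It passed the filter through the air-dried libraries alone, and with no filter it missed the threshold (limma adjusted p = 0.0555). The gene next to it had a log2 fold change of 0.91 and did not pass (limma adjusted p = 0.121). A locus of 356 bp on chromosome 12 (447691 to 448046), 92 bp upstream of a gene that was too low to be tested, rose from 2.67, 2.69 and 1.62 FPKM to 6.95, 6.65 and 6.07 FPKM, or from 4 fragments in each control to 10, 15 and 15. Its log2 fold change was 1.20 (SE 0.16, limma adjusted p = 0.0113).

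The other 3 higher loci, named after their values were seen, spanned 640 to 800 bp and had log2 fold changes of 0.53 to 0.91 (limma adjusted p = 0.0216 to 0.0425). The one of 710 bp on chromosome 14 (191104 to 191813) had 11, 9 and 17 fragments in control leaves and 23, 31 and 35 in air-dried ones. The one of 640 bp on chromosome 3 (10066653 to 10067292) had 5, 7 and 6 against 11, 18 and 23. The one of 800 bp on scaffold 39 (168370 to 169169), inside a gene, had 22, 22 and 21 against 34, 33 and 40. Bulk RNA cannot tell a change in each cell from a change in how many cells hold the RNA.

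The largest fall among the called loci rests on 5 fragments. XLOC_008645, of 237 bp on chromosome 11 (11591112 to 11591348), stood at 10.5, 4.53 and 2.74 FPKM without air-drying, whereas the 3 air-dried libraries listed it at 0 (limma adjusted p = 0.0196). It missed the threshold with no filter and, on the scale of smaller values, as fragments per kilobase (limma adjusted p = 0.0828 and 0.140). Those levels stood for 2, 1 and 2 fragments. Controls 1 and 3 held the same number of fragments but were listed at different FPKM. XLOC_007035, of 306 bp on chromosome 10 (13230020 to 13230325), had 3.95, 5.45 and 2.94 FPKM in control leaves, and 0, 0 and 0.595 FPKM in air-dried ones. Its fragments were 3, 4 and 5 against 0, 0 and 1 (limma adjusted p = 0.00967). XLOC_008645 and XLOC_007035 passed the filter for the test through the controls alone.

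The other 3 lower loci were covered better. A locus of 437 bp on chromosome 10 (10327872 to 10328308) measured 3.35, 2.59 and 3.48 FPKM in the controls and 0.769, 1.18 and 0.790 FPKM in the air-dried leaves, from 9, 7 and 13 against 2, 4 and 3 fragments (log2 fold change −1.11, SE 0.14, limma adjusted p = 0.0106). Its nearest gene, 5977 bp away, was called in the opposite direction (log2 fold change 2.07, limma adjusted p = 0.0105). A locus of 677 bp on scaffold 245 (23291 to 23967) had 35, 35 and 39 fragments against 12, 24 and 18, which is a fall by 0.85 on the log2 scale (SE 0.17, limma adjusted p = 0.0489). A locus of 796 bp on chromosome 8 (7544531 to 7545326) had 32, 39 and 46 fragments against 19, 22 and 17, and fell by 0.77 on the log2 scale (SE 0.14, limma adjusted p = 0.0368). Chosen after its values were seen, the locus 350 bp beyond it (7545677 to 7546771) had 55, 68 and 84 fragments against 19, 35 and 56 but did not pass (log2 fold change −0.79, SE 0.24, limma adjusted p = 0.168). Close neighbours of other called lower loci went both ways. The locus 151 bp from XLOC_007035 had a log2 fold change of 0.39. The loci 1417 and 270 bp from the locus of 437 bp had 0.22 and −0.51. As fragments per kilobase, again on the scale of smaller values, the called loci of 437, 677 and 796 bp missed the threshold (limma adjusted p = 0.0835, 0.0892 and 0.0583). With the replicate number as a block, each of the 5 lower loci missed it, with limma adjusted p between 0.0557 and 0.113.

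The tested nearest genes of the called loci were too few for a rate. Of the 8 higher loci, 6 had a nearest gene that was tested, and 1 of these genes was called higher and 0 lower. Of the 5 lower loci, 3 had one, with 1 called higher and 0 lower. Among the uncalled loci, 16 of 272 tested nearest genes were called higher and 4 lower. Over all tested genes the shares were 3.61% and 0.696%.

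The largest log2 fold change of all tested loci was not called. A locus of 201 bp inside an annotated gene on chromosome 1 (22652903 to 22653103) had 25.2, 15.1 and 2.76 FPKM in control leaves, as against 562, 73.7 and 104.2 FPKM in air-dried leaves. In fragments this was 3, 2 and 1 against 77, 23 and 39, or 23.6 times as many relative to library size after air-drying. Control 1 and air-dried 1 had the highest FPKM of their groups and also the most fragments. It missed the threshold in FPKM (log2 fold change 3.81, SE 1.00, limma adjusted p = 0.117) and passed it as fragments per kilobase (log2 fold change 3.17, limma adjusted p = 0.00908). The gene around it had a log2 fold change of −0.87 and did not pass (limma adjusted p = 0.238).

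In all, 62 tested loci had separate groups in FPKM but no call, of which 18 spanned under 300 bp and 18 held at least 100 fragments. Called or not, 6.14% of the tested loci were separate upwards and 12.3% downwards, against 13.4% and 9.18% of all tested genes. The share of all genes that were separate but not called is not at hand. The 4 with the next largest changes after the chromosome 1 locus were under 300 bp. A locus of 220 bp on chromosome 10 (15678273 to 15678492) had 2, 1 and 1 control fragments, and its entry was 0 in each air-dried library (limma adjusted p = 0.0551). One of 234 bp on chromosome 6 (4237549 to 4237782) had 0, 0 and 1 against 4, 2 and 3 fragments (limma adjusted p = 0.124). One of 231 bp on chromosome 17 (14647751 to 14647981) measured 11.2, 9.75 and 9.10 FPKM against 0, 1.69 and 3.12 FPKM, from 2, 2 and 6 against 0, 1 and 2 fragments (limma adjusted p = 0.0680). One of 202 bp on chromosome 3 (12592714 to 12592915) measured 49.7, 118.8 and 29.7 FPKM against 21.6, 3.13 and 21.0 FPKM (limma adjusted p = 0.255). Its fragments, 6, 16 and 11 against 3, 1 and 8, overlapped per kilobase between the groups.

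**Figure D5:**
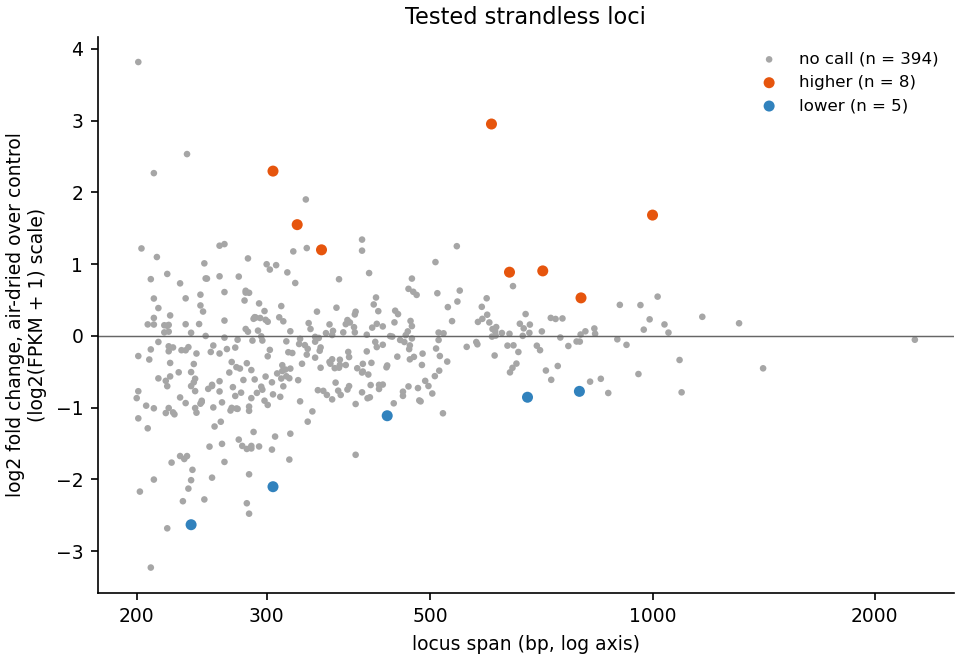
log2 fold change of the 407 tested loci, air-dried over control, against span in bp (log axis), with the 8 higher and 5 lower loci in colour. The loci under 300 bp spread more widely than the longer ones, and 1 of the 13 called loci is among them.

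The balance of directions differed between FPKM and fragments. Of the 485 loci, 29 had all 3 air-dried libraries above all controls in FPKM and 58 had all 3 below (5.98% and 12.0%, against 13.4% and 8.77% of all genes above 0 in at least 3 libraries). Among the 407 tested loci these counts were 25 and 50, against 13.4% and 9.18% of all tested genes. Counted as fragments per kilobase, 52 were above and 55 below, for which no value over all genes is at hand. In the fit with fragments per kilobase for the strandless loci, the median log2 fold change of the 407 loci was 0.010 in place of −0.20. The fit kept the FPKM filter and also added 1 to each value before the logarithm. Per library, the 485 loci had medians of 1.05 to 1.26 fragments per kilobase, scaled to library size, against 2.69 to 4.77 FPKM. Its fold changes are therefore shrunk more, and its calls are not like for like with those in FPKM. That fit called 9 loci higher and 5 lower, of which 6 and 1 were also called in FPKM. Over all genes in the same fit, 3.77% were called higher and 0.78% lower.

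Controls 1 and 2 and air-dried 2 and 3 lie on opposite sides of the length step. Within these libraries the groups and the length step coincide, so their effects cannot be told apart. In these 4 libraries alone, without control 3 and air-dried 1, the FPKM gave 11 higher and 72 lower loci (2.70% and 17.7% of those tested, against 3.48% and 2.41% of all genes). The same 4 libraries gave 16 higher and 2 lower loci as fragments per kilobase (3.93% and 0.491%, against 3.98% and 2.4% of all genes).

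With the wider filter of any value above 0 in at least 3 libraries, all 485 loci entered the fit of 27792 genes, and 10 were higher and 4 lower (2.06% and 0.825%, against 3.3% and 0.615% of all genes tested there, 3.92% in either direction). The number of loci above 0 did not differ beyond the spread, with 461, 474 and 468 of the 616 in the controls and 445, 466 and 483 after air-drying (exact permutation test, 2-sided p = 0.8). Of the 485 loci, 3 were listed at 0 in every air-dried library and 2 in every control. The rule of at least 3 libraries above 0 drops loci seen in fewer libraries, so these counts do not measure how rare such loci are. No value over all genes is at hand. The last 2 were a locus of 368 bp on chromosome 6 (23352823 to 23353190), with 3, 2 and 4 fragments after air-drying, and one of 367 bp on scaffold 108 (47308 to 47674), with 1, 1 and 2. Both were called higher on the wider filter (limma adjusted p = 0.0149 and 0.0164), which they passed through the air-dried libraries alone. A step of 1 fragment sets what an entry of 0 can mean: at 300 bp it was 0.622 to 1.57 FPKM, and lower levels were not detectable at this depth.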

How the data were processed

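Leaf poly(A) RNA was read as 100 bp paired ends, per the labels' protocols, in 3 control and 3 air-dried libraries grouped by title. The deposited values are FPKM per transcript, per the file headers. FastQC, TopHat and Cufflinks are listed in the submitters' processing notes, and the versions, their roles, the genome build and the annotation were not given in the sources used here. Positions are as in the files, counted from 1.

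FPKM was summed per identifier. The main test was limma 3.58.1 in R 4.3.3 (eBayes with intensity trend, 2-sided) on log2(FPKM + 1), group as sole term, over the genes that reached 1 FPKM in 3 or more of 6 libraries, with Benjamini-Hochberg adjustment. Such fold changes understate changes at low levels. The fit with fragments per kilobase also added 1, to smaller values, so it understates them more. Per-library values were compared by exact permutation tests (SciPy 1.17.1).

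The worth of 1 fragment was found from strandless loci by a straight line in span from 350 bp upwards, followed locus by locus below it, and fragments are FPKM divided by that worth. Counts above 20 are rounded estimates. Spliced genes were left in FPKM, because the files give no exon lengths, so no count test was run on all genes. Both steps were tested on simulated data.

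Named loci were those with the highest mean, the called ones (up to 5 per direction), uncalled ones with separate groups and the largest changes, the longest, the steadiest and those nearest 200 bp. The members and rules were chosen with earlier results of these data known. As the files pair no names with identifiers, 4 identifiers are printed.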

Additional observations from a re-analysis of the deposited data

How the results depend on the processing

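The calls moved most with the libraries used; where no cause is given it was not tested. The 13 called loci (8 higher, 5 lower) became 60 with library weights (17 and 43), 83 without control 3 and air-dried 1 (11 and 72) and 24 with the subtracted length as a covariate (14 and 10). Over all genes the share called was 4.3% in the main test and 11.2%, 5.88% and 5.63% in these fits, against 3.19%, 14.7%, 20.4% and 5.90% of the loci. They became 6 with no filter on low values (4 and 2) and 1 with a mean of at least 5 FPKM (1 and 0), where fewer loci were tested. Over all genes the share called was 1.96% with no filter and 3.29% with that mean, against 1.24% and 0.488% of the loci. In the fit with a mean of at least 5 FPKM, 6 higher and 23 lower of 205 loci had an unadjusted limma p under 0.05. Over all 16831 genes of that fit, 1595 higher and 875 lower ones did. Quantile normalization gave 8 lower loci, 1.97% of those tested against 0.807% of all genes. Of the 5 lower loci of the main test, only 3 were above 0 in all 6 libraries. Fragments per kilobase without control 3 and air-dried 1 gave 16 higher and 2 lower. Leaving out 1 library gave 4 to 19 called loci, 3 to 7 higher and 1 to 13 lower. That is 0.983% to 4.67% of the tested loci, against 2.11% to 3.07% of all genes. The lower loci numbered 1, 3 and 13 without controls 1, 2 and 3 and 8, 4 and 1 without air-dried 1, 2 and 3.

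With the replicate number as a block, 7 loci were higher and 3 lower, of which 5 and 0 were among the 13, and on the wider filter 7 were called. With the block, 2.20% of all genes were called higher and 0.266% lower, and on the wider filter 477 and 48 of 27792 genes. Deviations of same-numbered libraries correlated at 0.24, −0.15 and 0.12, and not every library correlated best with its own number, so these data do not show that the numbers pair the libraries. On the wider filter, the 14 calls became 33 with library weights, 60 without control 3 and air-dried 1, 9 for loci above 0 in all 6 libraries, 24 with the covariate, 22 with fragments per kilobase in those 4 libraries, and 4 to 18 without 1 library. Over all 27792 genes there, 918 were called higher and 171 lower. Library weights gave 1507 and 516, the fit without control 3 and air-dried 1 gave 713 and 386, and the covariate 1082 and 256. Fragments per kilobase in those 4 libraries gave 782 and 371. Fits without 1 library gave 478 to 637 higher and 39 to 97 lower.

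Of the named calls, XLOC_036318 and the locus of 1000 bp on chromosome 11 passed in the 19 refits in which they were tested. The refits reuse the same 6 libraries, and XLOC_036318 passed the main filter through the air-dried libraries alone. XLOC_017562 passed in 19 of 20, and of 19 refits each XLOC_008645 passed in 10, XLOC_007035 in 16, the chromosome 1 locus of 330 bp in 17, the chromosome 12 locus in 16, the chromosome 10 locus of 437 bp in 12, the scaffold 245 locus in 5 and the chromosome 8 locus of 796 bp in 6. The loci of 710, 640 and 800 bp passed in 12, 8 and 8. In the 6 refits that left out 1 library, the loci of 800 bp and 796 bp never passed. Among these 6, the scaffold 245 locus passed only without air-dried 2 and the locus of 640 bp only without air-dried 1.

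The difference in the share of FPKM, −0.138 percentage points, was 0.0146 over the FPKM of all genes, and 1.50 when counted as fragments per 1000000. It was −0.272 to −0.0661 without 1 library. The difference in loci above 0, −3 loci, was −12.2 to 6.83 without 1 library. Log2 fold changes of some uncalled loci changed sign. The locus of 270 bp on chromosome 2 went to 0.045 with the covariate. The one of 312 bp on chromosome 9 (11906038 to 11906349) went from 0.26 to −0.34 with library weights, −0.91 without control 3 and air-dried 1 and −0.42 to 0.74 without 1 library. The locus of 431 bp on chromosome 8 went to −0.033 without both and −0.023 to 0.22 without 1 library. The one of 355 bp there went to 0.027 with the span trend removed, 0.036 as fragments per kilobase and 0.22 in those 4 libraries. The locus of 200 bp went to 0.20 with weights and 0.42 as fragments in 4 libraries. The fits with fragments, the covariate or the span trend were chosen after the data were seen. On chromosome 6, the locus of 836 bp went from 0.030 to −0.010 with median centring, −0.0021 with quantile normalization, −0.056 with library weights, −0.29 without control 3 and air-dried 1, −0.17 there as fragments per kilobase, and −0.17 to 0.19 without 1 library. The locus of 354 bp went to 0.0046 as fragments per kilobase and 0.19 in those 4 libraries. Depth limits the 57 loci with under 10 fragments in all most.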
